A study of Mus musculus with 8 samples.

Results

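The 10 genes described here code for proteins of the lipid droplet and of triglyceride turnover: the droplet coat proteins Plin2 and Plin3, the synthesis enzymes Gpat3, Gpat4, Agpat3, Dgat1 and Dgat2, and the lipolysis proteins Pnpla2, Pnpla3 and Abhd5. They were chosen by function, out of 31899 entries in the 8-cell table and 29202 in the morula table, and all 10 were found in both. RNA-seq was performed on ICR mouse embryos (from 7-week-old, superovulated females) cultured in KSOM with or without trimetazidine (TMZ), which blocks β-oxidation of long-chain fatty acids at its thiolase step. The 4 groups were control and TMZ (100 μM) in 8-cell embryos collected 70 h post hCG and in morulae collected 78 h post hCG, with 2 libraries each. The study's text names both the zygote and the 2-cell stage as the start of inhibitor treatment. The replicates are described as biologically independent, but the study's text gives differing numbers of them, and the labels hold 2 libraries a group. The number of embryos in a library is not given. P-values measure only the spread between these libraries. The comparison asks how transcripts of fat storage and release differ when long-chain fatty acid oxidation is inhibited.

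Lipid droplets are cytoplasmic stores of triglycerides and sterol esters, surrounded by a phospholipid monolayer that carries coat proteins of the perilipin family. Triglycerides are built in the endoplasmic reticulum by stepwise addition of fatty acyl chains to glycerol-3-phosphate, and are taken apart by lipases that act at the droplet surface. Oocytes and preimplantation embryos carry such droplets as an internal reserve, and the fatty acids they release can be oxidized in mitochondria.

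The deposited tables hold FPKM values (fragments divided by gene length and by the library total) without gene names, and names were inferred from recovered gene lengths in Ensembl order. Each member was assigned at a posterior probability of at least 0.999889 at both stages. This value depends on the model that aligned the lengths. Among the members only Dgat1 had a recovered length equal to the annotated one, and Plin3, for example, had 3786 against 4090 bases. Assignments were passed between the stages, so the stages do not support a name independently. Library totals ran from 31672356 to 64814423 fragments, and a member's fragments in a library ran from 36 (Gpat4, 8-cell TMZ library A) to 8863 (Gpat3, 8-cell TMZ library B). The 2 TMZ columns for 8-cell embryos have identical headers, and letters A and B stand for their libraries. Replicates differed more at the 8-cell stage (SD of log2 values 0.40 in controls and 0.55 in TMZ) than at the morula stage (0.32 and 0.31). Of the preimplantation embryo markers 10 of 12 reached a mean of 1 FPKM in 8-cell embryos and 11 of 12 in morulae, Dppa3 and Dppa5a being the most abundant, while Sox2 was at or near 0 at both stages. The cumulus cell markers that were assigned (5 of 11 and 6 of 11) were at or near 0 in every library, except Amhr2. This gene was lower with TMZ in 8-cell embryos by the threshold used below (19.5 and 13.9 FPKM in controls, 8.41 and 8.21 FPKM with TMZ; log2 fold change -0.91, limma adjusted p = 0.771) and was at 6.42 to 13.2 FPKM in morulae, where it did not pass (-0.37, adjusted p = 0.507).

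At the morula stage 3 of the 9 members tested were lower in TMZ embryos by the threshold used here (limma, log2 fold change beyond 0.5 at an unadjusted P under 0.05): the coat gene Plin3, the acyltransferase gene Gpat3 and the lipase family gene Pnpla3. Their mean FPKM in TMZ morulae was 0.615, 0.538 and 0.638 times that of control morulae. Of all 9685 entries tested at this stage, 10.7% were lower and 7.16% higher by the same threshold. None of the 3 held after Benjamini-Hochberg adjustment over all entries (adjusted p from 0.182 to 0.223, limma). At the 8-cell stage 0 of the 8 members tested passed the threshold and 0 had an unadjusted P under 0.05, against 4.96% of all 10021 entries lower and 1.35% higher. Of all calls 78.6% were lower with TMZ in 8-cell embryos and 60.01% in morulae as deposited, and 46.6% and 40.2% after median-ratio scaling of the libraries. A fit of limma-voom to the recovered fragment numbers also called 0 members at the 8-cell stage.

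**Figure D1:**
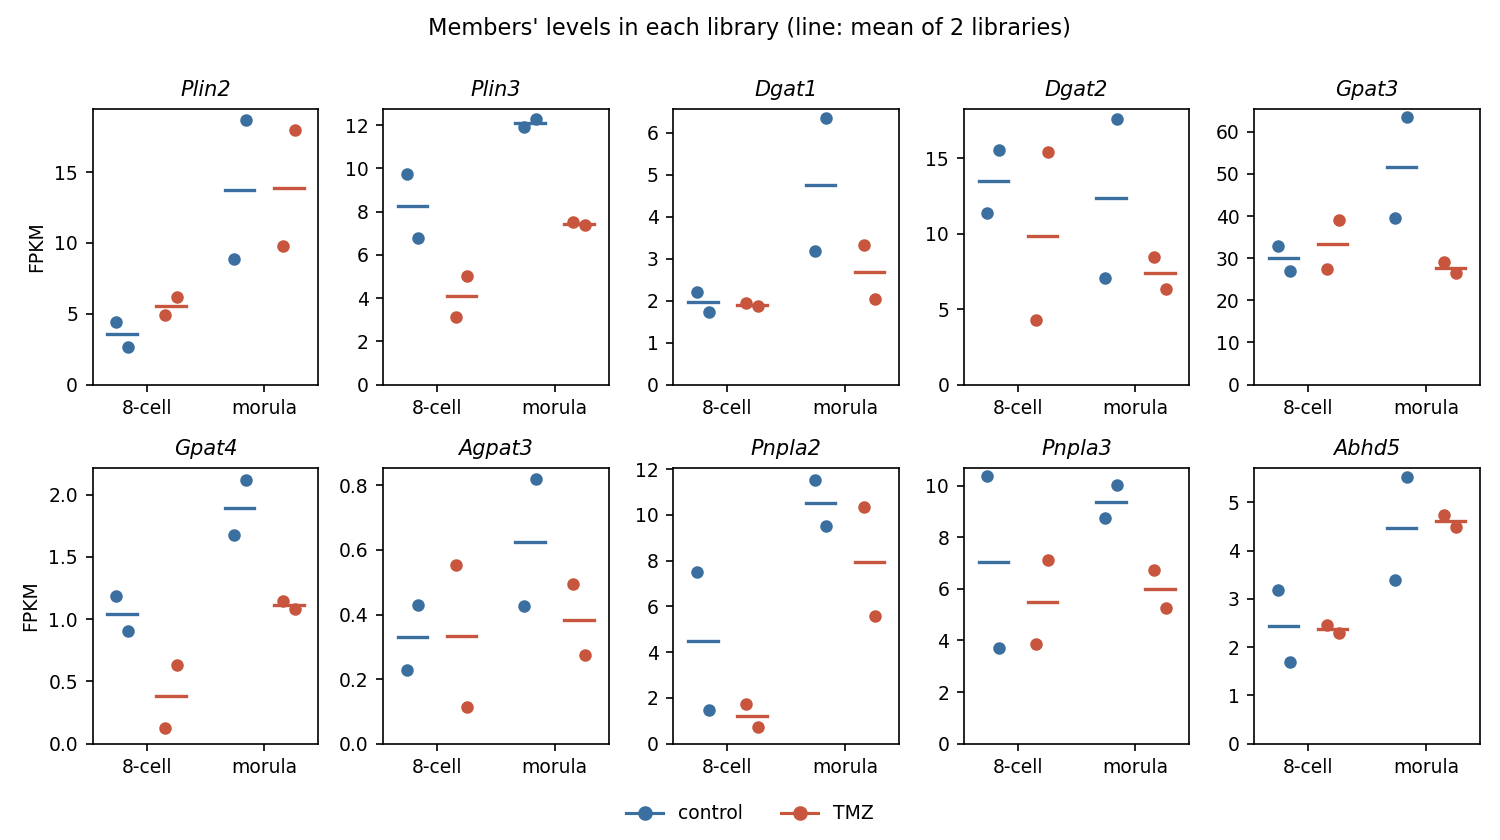
FPKM (y axis, linear, from 0) of each member in each library at the 8-cell and morula stages, control in blue and TMZ in red; points are libraries and lines the means of 2 libraries. The TMZ points of Plin3, Gpat3, Gpat4 and Pnpla3 lie below both control points at the morula stage, and those of Plin3 and Gpat4 also at the 8-cell stage.

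The coat gene Plin2 codes for the perilipin found on droplets of most cell types and lies on chromosome 4 (86565912 to 86588459, minus strand, GRCm39). It stood at 4.39 and 2.68 FPKM in 8-cell controls and at 4.93 and 6.21 FPKM in 8-cell TMZ libraries A and B. Both TMZ libraries were above both controls, but the difference did not pass the test (log2 fold change 0.55, SE 0.40, 95% confidence interval -0.35 to 1.46, limma adjusted p = 0.813). In morulae it was 8.84 and 18.7 FPKM in control libraries 1 and 2 and 9.79 and 17.95 FPKM in TMZ libraries 1 and 2, so that each group held a low and a high library and the groups overlapped. The log2 fold change was 0.04 (95% confidence interval -0.917 to 0.997, limma adjusted p = 0.962). Of the 31-base stretches of its exons 20.04% occur elsewhere in the genome, more than for any other member.

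Plin3 codes for a perilipin that moves between the cytosol and forming droplets, on chromosome 17 (56584218 to 56599873, minus strand). Its level was 9.73 and 6.76 FPKM in 8-cell controls against 3.14 and 5.03 FPKM with TMZ, and 11.9 and 12.3 FPKM in control morulae against 7.52 and 7.37 FPKM in TMZ morulae. It was the only member tested at both stages whose TMZ libraries were below both controls each time. The log2 fold change was -0.87 at the 8-cell stage (SE 0.40, 95% confidence interval -1.78 to 0.04; limma adjusted p = 0.771). In morulae, where its replicates differed least, Plin3 fell by 0.63 on the log2 scale (SE 0.19; limma adjusted p = 0.182). With the fits of all 8 libraries together, the 8-cell difference passed the threshold (limma adjusted p = 0.321) and the morula difference did not (adjusted p = 0.518). The morula difference also missed it without TMZ library 1 (log2 fold change -0.65) and without TMZ library 2 (-0.62).

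Gpat3 and Gpat4 code for the glycerol-3-phosphate acyltransferases of the endoplasmic reticulum, which start the synthesis of glycerolipids. Gpat3 (chromosome 5, 100993579 to 101046968, plus strand) had the highest level per length of the members in every library. It was at 32.9 and 27.0 FPKM in 8-cell controls and 27.5 and 39.0 FPKM with TMZ, overlapping (log2 fold change 0.13, 95% confidence interval -0.61 to 0.87; limma adjusted p = 0.959). In morulae the controls were at 39.6 and 63.6 FPKM and the TMZ libraries at 29.0 and 26.6 FPKM, without overlap. Gpat3 fell by 0.83 on the log2 scale (SE 0.25, 95% confidence interval -1.43 to -0.24; limma adjusted p = 0.183). Without control library 2, the higher of the controls, the change was -0.50 and no longer beyond the threshold, and without TMZ library 2 it was -0.77, with a P above 0.05. Of its exon bases 37.5% overlap exons of other annotated genes, and whether counting used strand is not stated.

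Gpat4 (chromosome 8, 23661281 to 23699042, minus strand) had a mean under 1 FPKM at the 8-cell stage and was not tested there. Its values were 1.18 and 0.903 FPKM in controls and 0.125 and 0.633 FPKM with TMZ. In morulae it was at 1.67 and 2.11 FPKM in controls and 1.14 and 1.08 FPKM with TMZ. The TMZ libraries were below the controls at both stages. The morula difference did not pass the test (log2 fold change -0.45, SE 0.22, 95% confidence interval -0.98 to 0.07, limma adjusted p = 0.297). Of 12 alternatives only limma-voom on the recovered fragment numbers called it (log2 fold change -0.76, adjusted p = 0.200). With a pseudocount of 0.1 FPKM in place of 1 FPKM the change was -0.71 and was not called.

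Agpat3, which codes for an acyltransferase acting on lysophosphatidic acid, the next step of the path (chromosome 10, 78105003 to 78208987, minus strand), was the lowest member and was tested at neither stage. Its values were 0.229 and 0.431 FPKM in controls and 0.552 and 0.113 FPKM with TMZ at the 8-cell stage, and 0.427 and 0.819 FPKM against 0.493 and 0.276 FPKM in morulae. Controls and TMZ overlapped both times.

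Dgat1 and Dgat2 code for the acyl-CoA:diacylglycerol acyltransferases that make triglyceride from diacylglycerol, and are enzymes of unrelated sequence. Dgat1 (chromosome 15, 76385083 to 76396476, minus strand) was at 2.19 and 1.73 FPKM in 8-cell controls and 1.95 and 1.87 FPKM with TMZ. In morulae it was at 3.19 and 6.34 FPKM in controls and 3.31 and 2.05 FPKM with TMZ. The groups overlapped at both stages, and the log2 fold changes were -0.02 (95% confidence interval -0.88 to 0.83; limma adjusted p = 0.997) and -0.61 (-1.41 to 0.19; adjusted p = 0.335). Exons of Hsf1, on the opposite strand, cover 54.6% of the exon bases of Dgat1, so that without strand the reads of the pair could not be told apart there.

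Dgat2 (chromosome 7, 98802491 to 98831991, minus strand) was at 11.4 and 15.5 FPKM in 8-cell controls, and at 4.29 FPKM in TMZ library A and 15.4 FPKM in library B. The TMZ libraries were 3.60 times apart, and the log2 fold change of -0.62 (95% confidence interval -1.81 to 0.57; limma adjusted p = 0.833) became -1.44 without library B and 0.20 without library A. In morulae the wide pair was the control, at 7.07 and 17.6 FPKM, against 8.45 and 6.32 FPKM with TMZ (log2 fold change -0.56, 95% confidence interval -1.51 to 0.39; limma adjusted p = 0.442). Without control library 1 the change was -1.16 and without control library 2 it was 0.04. The direction of Dgat2 thus rested on single libraries at both stages.

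Pnpla2 codes for adipose triglyceride lipase, which removes the first fatty acid from a triglyceride (chromosome 7, 141034404 to 141040656, plus strand). It was at 7.51 and 1.49 FPKM in 8-cell controls and 1.74 and 0.715 FPKM with TMZ, so control library 1 stood apart from the other three. The log2 fold change was -1.09 (SE 0.59, 95% confidence interval -2.41 to 0.24; limma adjusted p = 0.786), -1.97 without control library 2 and -0.20 without control library 1. In morulae it was at 11.5 and 9.50 FPKM in controls and 10.4 and 5.56 FPKM with TMZ, again overlapping (log2 fold change -0.41, 95% confidence interval -1.12 to 0.30; limma adjusted p = 0.452). The change was -0.014 without TMZ library 2, and -0.81 without TMZ library 1, when it passed the threshold (limma adjusted p = 0.241).

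Pnpla3 codes for a droplet-bound relative of that lipase (chromosome 15, 84051943 to 84073723, plus strand). In 8-cell embryos it was at 10.4 and 3.72 FPKM in controls and 3.86 and 7.11 FPKM with TMZ, and the groups overlapped (log2 fold change -0.22, 95% confidence interval -1.37 to 0.92; limma adjusted p = 0.952). In morulae both TMZ libraries, at 6.72 and 5.26 FPKM, were below both controls, at 8.74 and 10.03 FPKM. Pnpla3 fell by 0.58 on the log2 scale (SE 0.21, 95% confidence interval -1.09 to -0.06; limma adjusted p = 0.223). This call was the least stable of the 3 and was lost under median-ratio scaling of the libraries (log2 fold change -0.46), with limma-voom on the recovered fragment numbers (-0.65) and in the fit of all 8 libraries (-0.58).

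Abhd5 codes for the protein that activates adipose triglyceride lipase (chromosome 9, 122180621 to 122222936, plus strand). It was at 3.19 and 1.695 FPKM in 8-cell controls and 2.47 and 2.30 FPKM with TMZ, and at 3.40 and 5.52 FPKM in control morulae and 4.74 and 4.49 FPKM in TMZ morulae. The TMZ libraries lay between the controls both times. The log2 fold changes were 0.01 (95% confidence interval -0.91 to 0.93; limma adjusted p = 0.999) and 0.07 (-0.55 to 0.68; adjusted p = 0.9002). These intervals overlapped those of Plin3 at both stages (-1.78 to 0.04 and -1.08 to -0.19), and the changes of Abhd5 and Plin3 were not tested against each other.

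**Figure D2:**
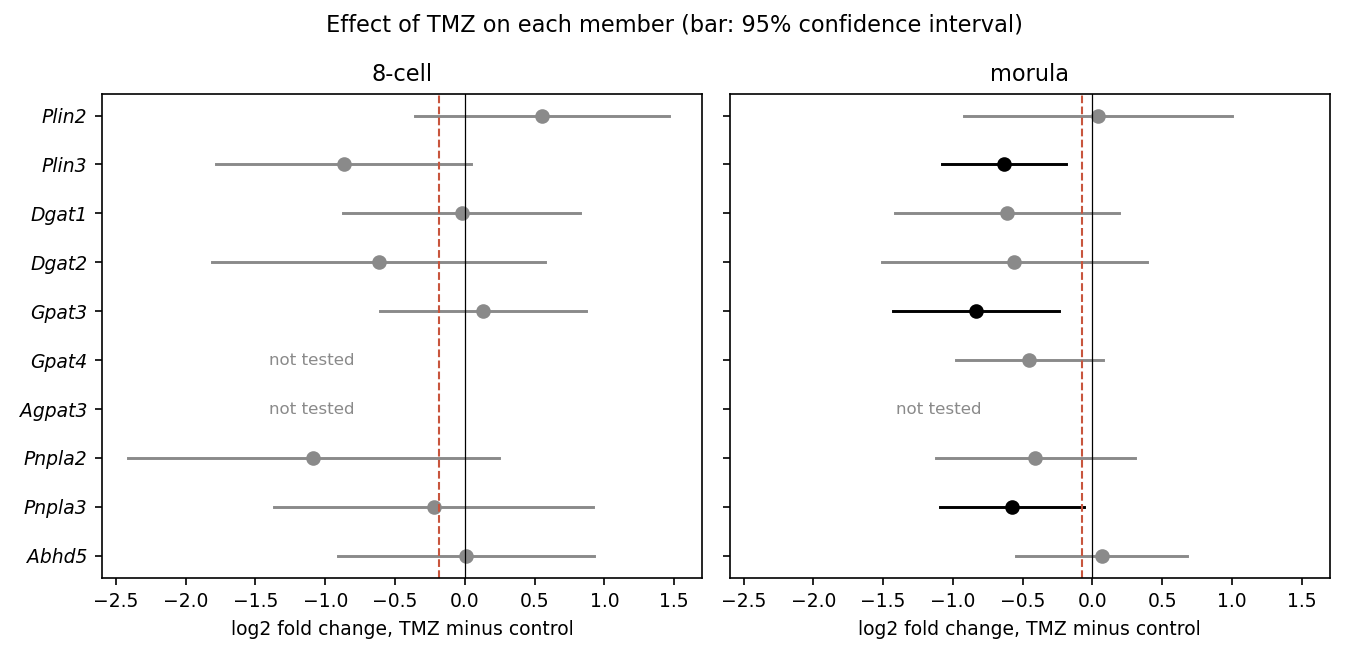
Log2 fold change of TMZ against control (x axis) for each member (y axis) at the 8-cell stage (left) and the morula stage (right), with 95% confidence intervals from limma; black marks the members past the threshold and the dashed line the median of all entries tested. At the morula stage Plin3, Gpat3 and Pnpla3 are black, and 7 of 9 members lie below 0, as do 57.3% of all entries. At the 8-cell stage every interval includes 0.

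Over the members tested, the log2 fold change was below 0 in 5 of 8 at the 8-cell stage, with a median of -0.12. Over all entries tested there, 69.1% were below 0, with a median of -0.19. In morulae the change was below 0 in 7 of 9 members, with a median of -0.56, beside 57.3% of all entries and their median of -0.08. Groups did not overlap, with TMZ lower, for 4 of the 9 members tested in morulae (Plin3, Gpat3, Gpat4 and Pnpla3), and 33.3% of all entries were separated in this way. The reverse held for 0 members in morulae, against 22.3% of all entries. At the 8-cell stage this held for 1 of 8 members (Plin3), against 29.6% of all entries, and the reverse for 1 (Plin2), against 8.09%. Median-ratio scaling turned the direction of the 8-cell member median to 0.098, with 3 of 8 members below 0, and left that in morulae at -0.44, with 7 of 9 below 0. It moved the median of all 8-cell entries to 0.05 and turned the direction of Dgat1 (0.17) and Pnpla3 (0.02) there.

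Single libraries weighed on these comparisons. How often each library was the highest or lowest over all entries was not counted, so the ranks below were not shown to be particular to the members. Calls over all entries moved with the library left out as well. More entries passed the threshold without morula control library 1 or either 8-cell TMZ library than with every library, and fewer without any other. Morula control library 2 was the highest of its 4 libraries for 9 of the 10 members, all but Pnpla2, and TMZ library 2 was the lowest for 8 of them, all but Plin2 and Abhd5. Without control library 2 only Plin3 still passed the threshold, and without TMZ library 2 no member did or had an unadjusted P under 0.05 (limma). Without control library 1 there were 4, with Dgat1 and Dgat2 added and Pnpla3 lost. Without TMZ library 1 there were 3, with Pnpla2 in place of Plin3. At the 8-cell stage control library 1 was the highest for 6 members, and leaving out TMZ library B gave 2 calls, Plin3 and Dgat2. Leaving out control library 2, or TMZ library A, gave 1 call there, Pnpla2.

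In the same morulae 7 of the 11 preimplantation embryo markers tested were lower with TMZ by the same threshold, against 10.7% of all entries. None of the 11 held after Benjamini-Hochberg adjustment (0 with an adjusted p under 0.05, limma). Among the 7 were Pou5f1 (30.2 and 42.4 FPKM in controls, 19.0 and 11.03 FPKM with TMZ), Nanog and Krt8. The log2 fold change was below 0 for 8 of the 11, and 1 marker had both TMZ libraries above both controls. The summed level of the 12 markers, nearly all of it Dppa3 and Dppa5a, was 18356 and 22467 FPKM in controls and 21640 and 26760 FPKM with TMZ. Of the oocyte markers 0 of 3 tested passed the threshold in morulae (0 with an unadjusted P under 0.05, limma). In 8-cell embryos 0 of 10 embryo markers and 0 of 7 oocyte markers tested passed (0 of either with an unadjusted P under 0.05, limma). Of the 2-cell markers 1 of 4 tested there rose, against 1.35% of all entries. This was Zscan4d (3.89 and 2.45 FPKM with TMZ against 0.345 and 0.163 FPKM, limma adjusted p = 0.620). The log2 fold change was below 0 for 2 of the 4, Zfp352 (-0.42) and Tdpoz4 (-0.16). In morulae 0 of 1 passed, Tdpoz4 (log2 fold change 0.06, limma adjusted p = 0.870). The part of such differences in the members' values was not tested. In these bulk libraries, fewer cells expressing a gene and less RNA per cell cannot be told apart.

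The effect of TMZ was then compared between stages, by a treatment by stage term in limma over the 9297 genes named at both stages and averaging at least 1 FPKM. Of these 0% passed an adjusted p of 0.05 and 717 had an unadjusted P under 0.05. None of the 9 members tested passed. Gpat3 came nearest, its effect in morulae being lower than that in 8-cell embryos by 0.97 on the log2 scale (effect difference -0.97, SE 0.40, 95% confidence interval -1.87 to -0.06; adjusted p = 0.620). For Plin3 the effects differed by 0.23 (95% confidence interval -0.68 to 1.15; adjusted p = 0.956). For Pnpla3 the difference was -0.35 (-1.70 to 0.996; adjusted p = 0.954). The 3 members called in morulae were thus not shown to respond differently at the 8-cell stage.

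The promoters of Plin3, Gpat3 and Pnpla3 are printed here because these members were lower together in TMZ morulae. They are the reference sequence of RefSeq (GRCm38.p6), spanning the annotated start, at chr17:56290462-56290761 on the minus strand, chr5:100845979-100846278 on the plus strand and chr15:84167566-84167865 on the plus strand. Capitals mark the E-box CACGTG, the CCAAT box, the GC box GGGCGG and the sterol response element TCACNCCAC on either strand.
Plin3: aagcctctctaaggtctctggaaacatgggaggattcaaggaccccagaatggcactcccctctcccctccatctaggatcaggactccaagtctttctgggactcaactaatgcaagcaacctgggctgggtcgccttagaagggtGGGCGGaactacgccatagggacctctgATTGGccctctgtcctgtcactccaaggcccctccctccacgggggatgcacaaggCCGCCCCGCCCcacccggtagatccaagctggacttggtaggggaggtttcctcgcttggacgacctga
Gpat3: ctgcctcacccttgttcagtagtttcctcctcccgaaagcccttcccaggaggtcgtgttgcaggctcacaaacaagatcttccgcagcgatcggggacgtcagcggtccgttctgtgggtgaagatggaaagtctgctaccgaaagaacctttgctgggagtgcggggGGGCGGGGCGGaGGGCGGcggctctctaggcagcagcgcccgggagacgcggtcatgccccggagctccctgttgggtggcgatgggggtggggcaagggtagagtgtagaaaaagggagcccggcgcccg
Pnpla3: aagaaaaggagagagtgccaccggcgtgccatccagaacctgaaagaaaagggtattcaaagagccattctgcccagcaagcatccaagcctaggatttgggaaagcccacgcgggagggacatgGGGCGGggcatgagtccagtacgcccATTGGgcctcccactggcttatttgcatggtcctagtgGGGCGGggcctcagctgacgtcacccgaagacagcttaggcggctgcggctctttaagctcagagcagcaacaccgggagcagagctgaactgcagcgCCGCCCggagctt
Each of the 3 holds 3 GC boxes, of which a pair overlaps by a base in Plin3 and in Gpat3. Plin3 and Pnpla3 each hold 1 CCAAT box, on the reverse strand, and Gpat3 none. None holds these letters of the E-box or of the sterol response element. Among the 32851 promoters listed, 35.7% hold a GC box, 37.4% a CCAAT box, 7.15% the E-box and 1.24% the sterol response element, so matches of the first 2 kinds are common. A match is a description of the sequence, not a site of binding.

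Levels of the members by stage are given as a description, since stages were deposited in separate tables. Among controls the mean FPKM was higher in morulae for all members except Dgat2. How many of all entries were higher in control morulae was not counted. Plin2 had the widest gap, 3.54 ± 1.21 FPKM (SD, n = 2) in 8-cell controls and 13.8 ± 6.95 in control morulae, a ratio of 3.89. Pnpla2 followed Dgat1 (2.43) with a ratio of 2.34, although the 8-cell controls of Pnpla2 were 5.04 times apart. Abhd5, Gpat4 and Gpat3 had ratios of 1.83, 1.81 and 1.72, Plin3 1.47 and Pnpla3 1.33. For Agpat3 the ratio was 1.89 and for Dgat2 it was 0.917. By mean level per length in control morulae the order was Gpat3 (51.6 ± 16.96 FPKM), Plin2, Dgat2 (12.3 ± 7.45), Plin3 (12.1 ± 0.282), Pnpla2 (10.5 ± 1.42), Pnpla3 (9.39 ± 0.912), Dgat1 (4.76 ± 2.23), Abhd5 (4.46 ± 1.502), Gpat4 (1.89 ± 0.313) and Agpat3 (0.623 ± 0.277). From Plin2 to Pnpla3 neighbours in this order lay within their spread, except Plin3 and Pnpla2, whose libraries did not overlap. Those of Dgat1 and Abhd5 overlapped, and the remaining neighbours were apart.

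The other genes of droplet and fatty acid metabolism were 75 genes in 6 lists. At the 8-cell stage 1 of the 23 tested was lower and 0 higher by the threshold, against 4.96% and 1.35% of all entries. In morulae 6 of 27 were lower and 2 higher, against 10.7% and 7.16% of all entries. The log2 fold change was below 0 in 17 of 23 and in 19 of 27, with a median of -0.22 and -0.16. Over all entries it was below 0 in 69.1% and 57.3%, with a median of -0.19 and -0.08. Of the other coat and biogenesis genes 1 of 6 tested fell in morulae, Hilpda, which codes for an inhibitor of adipose triglyceride lipase (32.5 and 35.6 FPKM in controls, 23.4 and 22.9 FPKM with TMZ; log2 fold change -0.54, limma adjusted p = 0.194). This call was lost without control library 2 (-0.47), TMZ library 1 (-0.55) or TMZ library 2 (-0.52), in the fit of all 8 libraries and under median-ratio scaling (-0.41). The most abundant of this list was Ldaf1, whose product acts with seipin in droplet formation, at 86.8 and 74.6 FPKM in control and 70.1 and 67.7 FPKM in TMZ morulae (log2 fold change -0.22, limma adjusted p = 0.457).

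Among other glycerolipid synthesis genes 1 of 5 tested fell in morulae, against 10.7% of all entries. This was Gpd1l, a relative of glycerol-3-phosphate dehydrogenase and the most abundant gene of the lists, at 192 and 216 FPKM in controls and 138 and 121 FPKM with TMZ (log2 fold change -0.65, SE 0.16; limma adjusted p = 0.167), and the call was lost only without TMZ library 2 (-0.56). In 8-cell embryos it was at 193 and 176 FPKM in controls and 131 and 141 FPKM with TMZ (log2 fold change -0.43, adjusted p = 0.791). Among other lipolysis genes 1 of 4 tested rose in morulae, against 7.16% of all entries. This was Ddhd2, which codes for a phospholipase and triglyceride hydrolase (4.84 and 4.21 FPKM in controls, 6.40 and 7.77 FPKM with TMZ, log2 fold change 0.55, limma adjusted p = 0.234). This call was lost in 6 of 13 alternatives: with a filter of at least 5 FPKM, in the fit of all 8 libraries, and with any 1 morula library left out (0.42 without TMZ library 2 to 0.67 without TMZ library 1). The most abundant of that list, the monoacylglycerol lipase gene Abhd6, was at 42.8 and 44.1 FPKM in control and 64.9 and 45.7 FPKM in TMZ morulae and did not pass the test (adjusted p = 0.405).

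Of the sterol ester genes 1 of 2 tested rose in morulae, against 7.16% of all entries. Soat2, which codes for a sterol O-acyltransferase, was at 2.46 and 2.55 FPKM in controls and 3.93 and 6.32 FPKM with TMZ (log2 fold change 0.78, SE 0.26; limma adjusted p = 0.206), and the call was lost without control library 1 (0.76), control library 2 (0.79) or TMZ library 2 (0.49). Among genes of fatty acid uptake and activation the fatty acid binding protein gene Fabp5 fell most, from 23.5 and 24.9 FPKM in control to 8.84 and 6.96 FPKM in TMZ morulae (log2 fold change -1.51, SE 0.20; limma adjusted p = 0.140). Fabp3, the most abundant of that list, was lower at the 8-cell stage (21.3 and 36.8 FPKM in controls, 15.5 and 11.7 FPKM with TMZ; log2 fold change -1.003, limma adjusted p = 0.771), and in morulae its change was -0.21 (adjusted p = 0.530). The 8-cell call was lost under median-ratio scaling (-0.73), with limma-voom (-1.05), without control library 2 (-0.62) and without TMZ library B (-0.82). Of the exon bases of Fabp3 38.5% overlap exons on the opposite strand.

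Of the 12 lipid regulators 4 were tested in morulae, and 3 of these fell, against 10.7% of all entries. They were Nr1h2 and Nr1h3, which code for the liver X receptors, and Rxra, which codes for their partner receptor. Nr1h2 was at 15.3 and 19.7 FPKM in controls and 12.3 and 9.78 FPKM with TMZ (log2 fold change -0.62, limma adjusted p = 0.213). Nr1h3 was at 3.45 and 3.22 FPKM against 1.81 and 2.00 FPKM (log2 fold change -0.58, adjusted p = 0.219), and Rxra at 1.78 and 1.94 FPKM against 1.02 and 0.837 FPKM (log2 fold change -0.57, adjusted p = 0.225). Under median-ratio scaling the change of each of these 3 genes was under 0.5 and no longer called, and in the fit of all 8 libraries none was called. Nr1h2 was also lost without control library 2 (-0.44) and without TMZ library 2 (-0.47), and Nr1h3 (-0.63 to -0.53) and Rxra (-0.64 to -0.504) with any 1 morula library left out. Srebf1, the other regulator tested, had a log2 fold change of -0.15 (95% confidence interval -0.70 to 0.40).

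**Figure D3:**
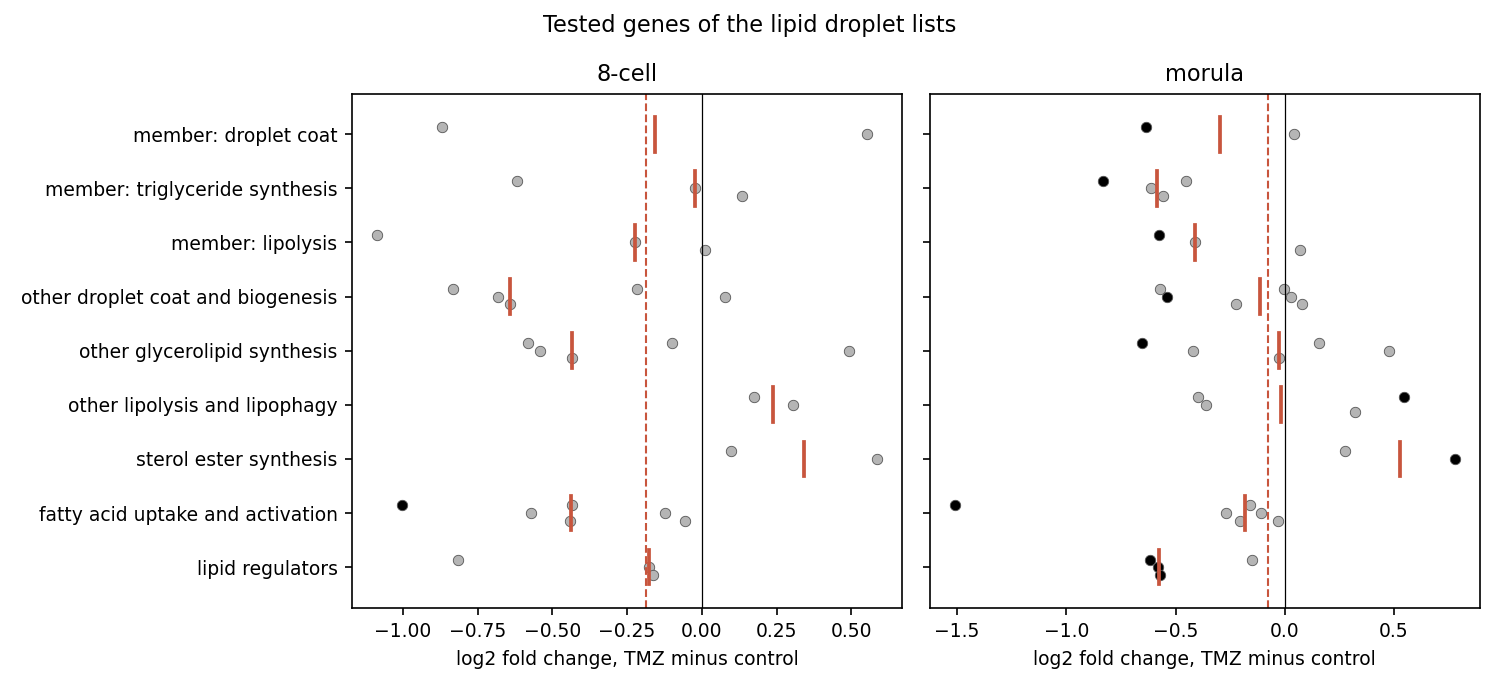
Log2 fold change of TMZ against control (x axis) for the tested genes of each list (y axis) at the 8-cell stage (left) and the morula stage (right); points are genes, black ones past the threshold, red bars the median of a list and the dashed line the median of all entries tested. In morulae the median of the member synthesis genes is -0.59 and that of the other glycerolipid synthesis genes -0.03, and the 2 sterol ester genes lie above 0.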

How the data were processed

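Per the submitters' processing notes, the authors trimmed reads with fastp 0.23.4, aligned them to GRCm39 with STAR 2.7.9a and counted them with featureCounts 2.0.6. Annotation release and strand settings are not given in the sources used here. The authors tested counts with DESeq2, which was not repeated, and deposited FPKM values, the fragments of a gene divided by its length and its library's total, in a table per stage with no gene names. All value columns were used.

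Library totals were solved from the FPKM values as whole fragments, for all entries. The recovered lengths, known up to a whole factor, were aligned in order with the exon-union lengths of vM39 GENCODE genes in Ensembl number order (pair hidden Markov model, Python 3.11.15, numba 0.67.0), passing each table's assignments to the other. Earlier versions of this model were replaced before any fold change was computed. At a posterior of at least 0.95, 27591 of 31899 and 25379 of 29202 entries were named. Of the named entries that were tested, 37.3% and 35.7% had exactly the annotated length. As a check, 74 of 74 cytosolic ribosomal protein genes assigned at the 8-cell stage had a mean of at least 1 FPKM, against 9 of 314 olfactory receptor genes. The entry named Gapdh had a mean of only 1.36 FPKM in 8-cell embryos and 1.66 FPKM in morulae. That named Tuba1b was also low, at 3.24 and 6.19 FPKM. No cause was tested for these low values.

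TMZ and control were compared within a table by limma-trend 3.58.1 (R 4.3.3) on log2(FPKM + 1), with no covariates, keeping entries that averaged at least 1 FPKM. Fold changes are on this scale, which understates changes of low genes. The threshold follows the study's (unadjusted P under 0.05, log2 fold change beyond 0.5). The scripts were tested on simulated data. Members, lists and tests were chosen with earlier results of these data known. The genes named are the members, genes of the other lists past the threshold at either stage and the most abundant gene of each list. Alternatives were the pseudocount, the filter, the scaling, the fit and its samples, limma-voom, the posterior and each library left out.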

Additional observations from a re-analysis of the deposited data

How the results depend on the processing

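The count of members lower in TMZ morulae, 3, was 2 under median-ratio scaling, 1 (Gpat3) in the fit of all 8 libraries and 0 to 4 with each library left out in turn, and 3 under every other alternative run. At the 8-cell stage the count of 0 became 1 (Plin3) in the fit of all 8 libraries and without the trend, and 0 to 2 with each library left out. The difference between stages passed for no member under any alternative. Median-ratio scaling turned the median of all entries to 0.046 in 8-cell embryos and 0.027 in morulae, and 8-cell Dgat1 to 0.17 and Pnpla3 to 0.023; the causes were not tested beyond the scaling itself.

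With each library left out in turn, log2 fold changes that turned direction ran at the 8-cell stage from -0.14 to 0.089 for Dgat1, -1.44 to 0.20 for Dgat2, -0.11 to 0.38 for Gpat3, -0.86 to 0.41 for Pnpla3 and -0.31 to 0.33 for Abhd5. At the morula stage they ran from -0.46 to 0.54 for Plin2, -1.16 to 0.043 for Dgat2 and -0.22 to 0.35 for Abhd5. The change of Plin3 kept its direction at both stages under every alternative, from -1.14 to -0.60 and from -0.70 to -0.52. That of Pnpla2 did so too, from -1.97 to -0.20 and from -0.81 to -0.014. Of the other members Plin2 kept its direction at the 8-cell stage, and Dgat1, Gpat3, Gpat4 and Pnpla3 in morulae. The change of Fabp5 in morulae ran from -1.66 to -1.36 and passed the threshold each time.

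Entries past the threshold, 632 in 8-cell embryos and 1733 in morulae, were 281 and 1058 with a filter of at least 5 FPKM, with fewer entries tested, 1149 and 887 in the fit of all 8 libraries, and 276 to 1837 and 786 to 1869 with a library left out, when 1 group holds a single library whose spread is taken from the other. The replicate number as a block in morulae gave 3 members and 1989 entries past the threshold and ended 1 call of those named, Rxra (adjusted p = 0.234). The deviations of same-numbered morula libraries correlated at only 0.08 over entries, so the numbers were not taken to pair the libraries. No paired analysis was possible at the 8-cell stage because its TMZ columns carry no replicate numbers. With 2 libraries a group, the wide intervals of the members limit what could be seen.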
